A study of Mus musculus with 15 samples.

Results

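Cortical RNA of mice lacking both presenilins was compared with that of wild-type mice, all drinking plain water. The comparison used 8 of the 15 RNA-seq libraries of the study, 4 from the conditional presenilin double knockout (DKO water) and 4 from wild-type C57BL6/J mice (WT water). It covered every gene with at least 1 FPKM, reads scaled to the length of the gene model and to the library's total, in 3 or more of the 15 libraries, which was 12728 of the 21878 genes listed. Mice of both genotypes entered the exposure at 8 months of age, kept it for 3 months and went through behaviour tests before the prefrontal forebrain cortex was taken. The remaining groups, 4 WT nicotine and 3 DKO nicotine libraries, came from mice whose drinking water held nicotine at 100 µg/ml. The sources used here do not give the promoter that drives recombination in the conditional knockout, the cell type in which it acts or the sex of the mice. The labels number the libraries without saying that they come from different animals, so p-values reflect only how far these libraries differ from each other, which may be technical.

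Presenilins are the catalytic subunits of gamma-secretase, an intramembrane protease that cleaves the amyloid precursor protein, Notch receptors and many other membrane stubs. Loss of presenilin function from neurons of the adult mouse forebrain is known for synaptic failure, memory decline and age-dependent neurodegeneration with gliosis. Around degenerating neurons, microglia, the resident macrophages of the brain, switch on a phagocytic, lysosomal and lipid-handling programme that depends in part on the receptor Trem2, and astrocytes raise their intermediate filaments. Immediate early genes are transcribed within minutes of neuronal firing and need no new protein synthesis, which makes their messenger RNA a common readout of recent activity.

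Psen2, which encodes presenilin 2 and lies at chr1:180227004-180263467 in GRCm38.p6, was at 5.44, 7.14, 6.94 and 6.23 FPKM in the WT water libraries and 1.54, 1.72, 1.5 and 1.29 FPKM in the DKO water libraries. Every DKO water library lay below every WT water library, and the change was -1.56 on the log2(FPKM + 1) scale (SE 0.08, limma adjusted p = 3.54e-10). All fold changes below are on that scale, which understates the change of genes near or below 1 FPKM. A gene is said to have risen or fallen when its Benjamini-Hochberg adjusted p over the 12728 genes was under 0.05 in limma, and means are given ± SD over the 4 libraries of a group. The filter admits genes that reach 1 FPKM in only 1 genotype. For these a call in that direction was partly set by the filter, and counts of list members include them.

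Markers of cortical tissue were present in all 8 libraries. Slc17a7, the vesicular glutamate transporter of cortical excitatory neurons, ranged over 531 to 574 FPKM in WT water and 549 to 585 FPKM in DKO water and was not called. Gad2, which makes GABA in inhibitory neurons, rose from 20.7 ± 0.283 to 27.2 ± 3.53 FPKM. The Y-linked helicase gene Ddx3y ranged over 9.96 to 12.8 FPKM in WT water and 10.6 to 13 FPKM in DKO water, so every water library held Y-linked RNA.

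Reads assigned to genes numbered 18035256 to 19469257 in WT water and 16334914 to 18614875 in DKO water, so that for a model of median length, 3564 bases, 1 FPKM corresponded to 58.2 reads in the shallowest of the 8. The sum of all FPKM values was higher in every DKO water library (309673 to 319232) than in any WT water library (295704 to 305237). The change varied with gene length: with genes ranked by model length and cut into 5 equal classes, its median was 0.12 in the shortest class (277 to 1936 bases) and -0.020 in the longest (6251 to 58774 bases). Rescaling each library by its median of ratios, which shifts the median change of all genes from 0.048 to 0.00027, left 0.064 and -0.067 in those classes. The part of length in the results below was not tested. On the first principal component of the 8 libraries, with 73.4% of the variance, the genotypes were separate.

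Markers of other cells and regions moved with genotype as well. Summed over the 14 striatal markers, of which none was at 0, FPKM ranged from 176 to 253 in WT water and from 257 to 434 in DKO water. Within DKO water the sum was 257 in replicate 3, close to the highest WT water library, and 434 and 422 in replicates 2 and 4. 14 markers of meninges and fibroblasts summed to 115 to 132 FPKM in WT water and 146 to 199 FPKM in DKO water. For the 12 markers of border-associated macrophages the sums were 6.58 to 8.93 and 10.9 to 14.8 FPKM, and for the 24 markers of endothelium 242 to 254 and 279 to 329 FPKM. Pericyte and smooth muscle markers, 14 in number, summed to 91.7 to 98.5 and 118 to 132 FPKM. Blood leukocyte markers had low sums, which for monocytes and neutrophils were higher in every DKO water library than in any WT water library: 17 monocyte and neutrophil markers, 2 of them at 0 in all 8 libraries, summed to 6.19 to 9.36 and 15.8 to 22.6 FPKM, and 19 lymphocyte markers, 1 of which reached the filter, to 2.49 to 3.81 and 3.82 to 5.7 FPKM. The 12 markers of choroid plexus and ependyma overlapped between groups, with sums of 12.7 to 21.6 and 20.9 to 47.2 FPKM. The part of these cells and regions in the results below was not tested. In bulk tissue, more or fewer cells of a type and more or less RNA per cell cannot be told apart.

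In DKO water 3252 genes were higher and 1584 lower than in WT water, 25.5% and 12.4% of those tested. Under the rescaling the counts were 2430 higher and 2341 lower, so the split between directions depends on the scaling of the libraries. Because rescaling shifted the changes downward, it could hardly cost a gene its call as lower. All 1584 genes called lower kept that call, and 2430 of the 3252 rises kept theirs. Rises were larger than falls: 165 rises and 14 falls reached 2-fold, and 24 rises and 1 fall reached 4-fold. Libraries of the groups did not overlap for 36.5% of tested genes, and for 84.3% of the rises and 87.6% of the falls. Leaving out any 1 of the 8 libraries kept 71.7% of the rises and 74.1% of the falls in every case. The plot of change against level shows the rises spread over all levels. Activity genes such as Arc are among the largest falls, as are Psen2 and Frzb.

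**Figure D1:**
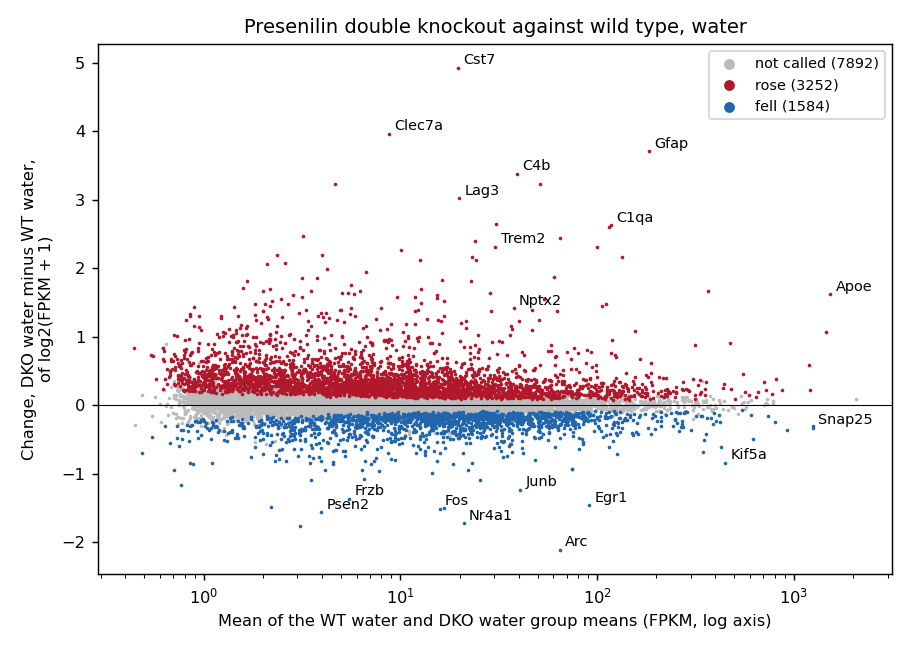
Each point is 1 of the 12728 tested genes, with the mean of the WT water and DKO water group means of FPKM on a log axis and the log2 change, DKO water minus WT water, of log2(FPKM + 1). Red points rose (3252), blue points fell (1584) and grey points were not called; the labelled genes include Cst7 at 4.92 and Arc at -2.11.

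Counted in FPKM, the largest gains were led by secreted and lysosomal proteins. Apoe, the main lipid carrier of the brain, was at 746, 829, 726 and 713 FPKM in the WT water libraries and 2477, 2363, 2398 and 2028 FPKM in the DKO water libraries, and Cst3, the secreted protease inhibitor cystatin C, went from 941 ± 62.1 to 1974 ± 97.8 FPKM. Apoe thereby exceeded Snap25, a membrane fusion protein of synapses, which fell from 1397 ± 55.4 to 1109 ± 59.2 FPKM. Others of the 10 largest gains were Cpe, a peptide-processing enzyme, from 957 ± 32.1 to 1444 ± 51.7 FPKM, Ctsd, the lysosomal protease cathepsin D, from 175 ± 5.23 to 560.2 ± 72.2 FPKM, and Clu, the chaperone clusterin, from 331 ± 16.5 to 620.0 ± 22.8 FPKM. Gfap and Ftl1, described below, the actin-binding thymosin gene Tmsb4x (from 469 ± 39.6 to 641 ± 15.4 FPKM) and the elongation factor gene Eef1a1, with a change of 0.22, were also among them. Ptgds, a prostaglandin D synthase made by meninges and oligodendrocytes, rose from 702 ± 46.2 to 925 ± 127 FPKM, but its call was lost without WT water replicate 1, 3 or 4 or DKO water replicate 1, 2 or 3 (limma adjusted p from 0.0511 to 0.116) and after rescaling (limma adjusted p = 0.0614).

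The 10 largest losses in FPKM were mostly in genes of synapses, calcium signalling and axonal transport. Kif5a, a kinesin heavy chain that drives axonal transport, was at 589, 574, 549 and 588 FPKM in the WT water libraries and 324, 314, 323 and 324 FPKM in the DKO water libraries. The DKO water values lay close together and far below WT water, with a change of -0.84 in log2 units, with an SE of 0.04 (limma adjusted p = 2.46e-11). Calm2, which encodes calmodulin, fell by 0.31, and Nrgn, a postsynaptic calmodulin buffer, by 0.36. The kinase gene Camk2a fell from 725 ± 8.43 to 517 ± 33.2 FPKM and its inhibitor Camk2n1 from 514 ± 21.5 to 335 ± 9.72 FPKM. Ppp3r1, the regulatory subunit of calcineurin, fell by 0.50, and Vsnl1, a neuronal calcium sensor, by 0.42.

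Microglial genes carried most of the largest rises. Cst7, which encodes the lysosomal protease inhibitor cystatin F, was at 0.376, 0.112, 0.313 and 0.337 FPKM in the WT water libraries and 35.5, 31.9, 58.2 and 30.9 FPKM in the DKO water libraries. Replicate 3 was the highest DKO water library, and all 4 were far above WT water, where each value stood on 2 to 7 reads. Clec7a, the beta-glucan receptor dectin-1, was at 0.247, 0.129, 0.12 and 0.181 FPKM in the WT water libraries and 16.9, 19.8, 18.6 and 14.2 FPKM in the DKO water libraries, and Itgax, the integrin CD11c, at 0.0526, 0.0961, 0.14 and 0.0276 FPKM in the WT water libraries and 10.3, 8.34, 11.1 and 7.19 FPKM in the DKO water libraries. The groups were far apart for both. The changes were 4.92 for Cst7, 3.97 for Clec7a and 3.23 for Itgax, on a scale that understates ratios at these WT water levels. Lyz2, which encodes the lysozyme of phagocytes, rose from 9.08 ± 0.52 to 93.4 ± 8.36 FPKM, and Cd68, a lysosomal glycoprotein of phagocytes, from 6.92 ± 0.209 to 41.1 ± 3.93 FPKM.

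Genes of the resting microglial state rose in most cases, by very different amounts. Of the homeostatic list, 16 of 20 rose and 1 fell, with a median change of 0.82 beside 0.048 over all tested genes. P2ry12, the ADP receptor that steers microglial processes, was at 15.1, 16.4, 15.7 and 15.5 FPKM in the WT water libraries and 16.8, 19.3, 18.6 and 17.1 FPKM in the DKO water libraries, and its groups did not overlap. The call was lost without DKO water replicate 2 (limma adjusted p = 0.0635) and after rescaling (limma adjusted p = 0.0817). Tmem119, a microglial surface protein, rose from 9.28 ± 1.27 to 13.2 ± 0.557 FPKM, while Selplg was not called, at 9.72 ± 0.689 FPKM in WT water and 9.46 ± 0.673 FPKM in DKO water. Siglech, a sialic acid-binding receptor, was not called either, at 4.31 ± 0.0899 FPKM in WT water and 5.04 ± 0.671 FPKM in DKO water. Fcrls, an Fc receptor-like protein, rose from 9.55 ± 1.21 to 36.4 ± 6.52 FPKM and Olfml3 from 6.68 ± 1.64 to 25.8 ± 1.97 FPKM. Csf1r, the receptor that keeps microglia alive, rose from 22.3 ± 0.858 to 43.2 ± 3.1 FPKM, and its ligand gene Csf1 from 6.5 ± 0.55 to 11.3 ± 0.813 FPKM. The member that fell, Mef2c, is a transcription factor that cortical neurons also express.

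Genes of disease-associated microglia rose almost throughout. 10 of 11 early genes rose (median 1.24) and 27 of 29 late genes (median 1.29), and none fell; after rescaling 1 late gene, Ank, was called lower. Trem2, the lipid-sensing receptor, was at 9.61, 11.2, 9.68 and 7.64 FPKM in the WT water libraries and 53.3, 50.7, 54.2 and 46.6 FPKM in the DKO water libraries, and Tyrobp, its signalling adaptor, at 20.9, 21.4, 17.6 and 18.2 FPKM in the WT water libraries and 108, 115, 123 and 95.3 FPKM in the DKO water libraries. In both genes every DKO water library was above every WT water library and replicate 4 was the lowest of its group. Of the late genes, Cd9, a tetraspanin, rose from 25.6 ± 2.63 to 96 ± 4.31 FPKM, Gpnmb, a glycoprotein of phagocytes, from 0.797 ± 0.23 to 5.5 ± 0.647 FPKM, Spp1, osteopontin, from 6.2 ± 0.353 to 18.4 ± 5.49 FPKM, and Lpl, lipoprotein lipase, from 4.4 ± 0.202 to 8.48 ± 0.263 FPKM. Fth1, the ferritin heavy chain, and Cadm1, an adhesion molecule, were not called.

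**Figure D2:**
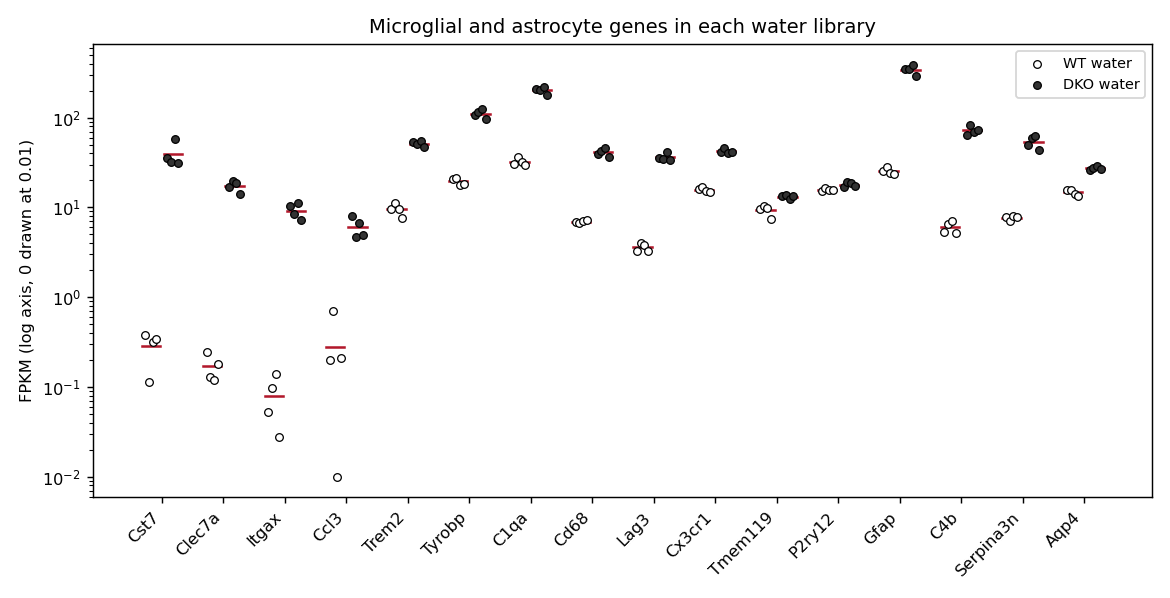
FPKM on a log axis in each of the 4 WT water (open circles) and 4 DKO water (filled circles) libraries for 16 microglial and astrocyte genes; short bars are group means, and values of 0 are drawn at 0.01. In all 16 genes every DKO water library lies above every WT water library, with P2ry12 the narrowest gap.

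Lineage transcription factors rose with the surface markers. Irf8, which specifies microglia, was at 1.2, 1.05, 1.18 and 1.23 FPKM in the WT water libraries and 6.19, 5.82, 5.46 and 5.92 FPKM in the DKO water libraries, and Spi1, which encodes PU.1, rose from 1.8 ± 0.265 to 5.22 ± 0.453 FPKM. Cebpa rose from 3.71 ± 0.406 to 9.25 ± 0.614 FPKM and Ikzf1 from 0.603 ± 0.0424 to 1.68 ± 0.199 FPKM. Of 14 tested factors 10 rose and Mef2c alone fell, with a median of 0.45. Cell division genes moved less. In a list of 29 proliferation genes 16 reached the filter, 7 rose and 1 fell, and 4 rose when WT water replicate 1 or 4 was left out. After rescaling 5 rose and 2 fell. Over all tested genes 25.5% rose and 12.4% fell, so the counts with 1 of those libraries left out were near the share of rises over all genes. The mitotic gene Mki67 was below the filter, at 0.116 ± 0.0635 FPKM in WT water and 0.228 ± 0.0215 FPKM in DKO water, as was Top2a.

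Receptors that recognise antibody and microbial products rose with few exceptions. All 7 Fc gamma receptor genes rose, Fcgr2b from 2.19 ± 0.342 to 11.3 ± 0.477 FPKM and the shared signalling chain Fcer1g from 8.82 ± 1.84 to 22.2 ± 3.45 FPKM. Of 17 Toll-like receptor and adaptor genes 13 rose and none fell, led by Ly86, which encodes MD-1, from 7.86 ± 1.61 to 38.4 ± 1.03 FPKM, and Tlr2 from 0.38 ± 0.115 to 4.81 ± 0.497 FPKM. The phagocyte NADPH oxidase, which makes superoxide, rose in all 7 subunits tested, with Cyba from 5.45 ± 0.957 to 19.9 ± 1.42 FPKM and Cybb from 0.166 ± 0.0473 to 1.08 ± 0.174 FPKM. Members such as Cybb and Tlr2, with WT water means below 1 FPKM, could pass the filter through DKO libraries alone. Their rises are therefore weak support for the list counts. Cd14, a lipopolysaccharide co-receptor, rose from 1.62 ± 0.313 to 5.15 ± 0.922 FPKM. Lag3, an inhibitory receptor that binds MHC class II, was at 3.31, 3.97, 3.77 and 3.29 FPKM in the WT water libraries and 35.7, 34.4, 41.8 and 33.3 FPKM in the DKO water libraries and every DKO water library was far above every WT water library.

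Components that start the complement cascade rose. C1qa, C1qb and C1qc encode the chains of C1q, the molecule that tags synapses and debris, and C1qa was at 30.6, 36.2, 31.7 and 29.8 FPKM in the WT water libraries and 209, 204, 221 and 179 FPKM in the DKO water libraries. Their changes were 2.63, 2.60 and 2.31. C4b, a classical pathway component made by astrocytes and oligodendrocytes, was at 5.32, 6.51, 7.08 and 5.22 FPKM in the WT water libraries and 64.8, 82.9, 68.6 and 71.8 FPKM in the DKO water libraries, and C3 rose from 0.281 ± 0.0258 to 2.17 ± 0.252 FPKM. The receptor genes C3ar1 and Itgam rose by 1.53 and 0.68. Of 19 tested members 11 rose and 1, the brain complement inhibitor Csmd2, fell, with a median of 0.51.

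Antigen presentation rose in both classes. Of 22 class I and peptide loading genes 16 rose and 1, H2-T22, fell. H2-D1 rose from 29.9 ± 1.83 to 72 ± 5.58 FPKM and B2m, its light chain, from 99.99 ± 7.27 to 212 ± 8.86 FPKM. Class I genes are near-identical copies whose reads the counting could split, so the members may not be independent. All 6 class II genes tested rose (5 after rescaling, and 5 when WT water replicate 2, 3 or 4 or DKO water replicate 1, 2 or 3 was left out), with the invariant chain Cd74 at 4.27, 5.74, 3.34 and 3.29 FPKM in the WT water libraries and 22.6, 21.1, 22.2 and 18.6 FPKM in the DKO water libraries. The Cd74 groups did not overlap, and its change was 2.12 (SE 0.20, limma adjusted p = 4.16e-07).

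Interferon-stimulated genes rose by smaller amounts. 21 of 31 tested members rose and none fell, with a median of 0.35, and with DKO water replicates 2 and 4 left out together 12 were called. Bst2, the antiviral tethering protein tetherin, was at 5.03, 2.95, 3.01 and 3.17 FPKM in the WT water libraries and 7.49, 5.96, 6.22 and 6.77 FPKM in the DKO water libraries, with no overlap between the groups. Gbp2, a guanylate-binding GTPase, rose from 1.44 ± 0.196 to 2.97 ± 0.321 FPKM, Ifit3 from 3.31 ± 0.432 to 5.13 ± 0.714 FPKM, Trim30a from 0.614 ± 0.103 to 1.25 ± 0.159 FPKM and the transcription factor gene Irf9 from 2.33 ± 0.32 to 4.13 ± 0.305 FPKM. Isg15 and Ifit1, which respond to type I interferon, were not called, Isg15 at 1.49 ± 0.467 FPKM in WT water and 1.98 ± 0.926 FPKM in DKO water. Ifit1 had a change of 0.26 and was called higher in a fit on the 8 water libraries alone (limma adjusted p = 0.0352) and with the replicate number as a block (limma adjusted p = 0.0473). The call of Ifit3 was lost without DKO water replicates 2 and 4 together (a change of 0.39, limma adjusted p = 0.117). Reads of Ifit3 may be shared with its neighbouring copy Ifit3b.

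Promoters of these genes were searched for the interferon-stimulated response element (ISRE), the site of the Stat and Irf9 complex, written here as GTTTCNNTTTC and read on both strands from 250 bases before to 50 bases after the RefSeq start. Of the 19 called members with a promoter in the table, 9 held it (47.4%), as did 5 of the 9 uncalled members, against 0.944% of 27025 genes. The list was assembled by function, so its share says nothing about which members rose. The stretches below, from RefSeq on GRCm38.p6, show the element in capitals in 4 genes that rose, with Ifit3 holding it in 2 places. They lie at chr19:34583352-34583436, plus strand for Ifit3, chr8:71537572-71537622, minus strand for Bst2, chr3:142620583-142620633, plus strand for Gbp2 and chr7:104465200-104465250, minus strand for Trim30a, each read 5′ to 3′ along its gene.
Ifit3: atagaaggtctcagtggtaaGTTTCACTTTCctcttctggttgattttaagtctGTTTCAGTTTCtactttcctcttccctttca
Bst2: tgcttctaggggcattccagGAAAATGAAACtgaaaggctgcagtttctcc
Gbp2: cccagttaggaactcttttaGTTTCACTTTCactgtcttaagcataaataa
Trim30a: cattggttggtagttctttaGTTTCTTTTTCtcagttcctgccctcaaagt
In Bst2 the element is on the opposite strand, so it appears reverse-complemented. A match of letters is not evidence of binding.

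Several chemokine genes rose. Ccl3, a chemokine of activated myeloid cells, was at 0.201, 0.699, 0 and 0.211 FPKM in the WT water libraries and 8.06, 4.7, 6.66 and 4.96 FPKM in the DKO water libraries, and Ccl4 rose from 0.0145 ± 0.0291 to 1.77 ± 0.455 FPKM and Ccl6 from 0.8 ± 0.234 to 7.21 ± 0.408 FPKM. Cx3cr1, the microglial fractalkine receptor, rose from 15.7 ± 1 to 42.4 ± 2.77 FPKM, whereas Ackr1, a scavenging receptor of venules, fell from 42 ± 2.06 to 24.4 ± 0.561 FPKM. The neuronal ligand gene Cx3cl1 fell by 0.11, a call that was lost without any 1 of the WT water libraries or without DKO water replicate 2 or 4 (limma adjusted p from 0.0533 to 0.116). In the whole list 8 of 16 tested members rose and 2 fell, the falls at a share near the 12.4% over all tested genes, with a median of 0.47, and Ccl2 and Ccl5 stayed below the filter. TGF-beta signalling holds microglia at rest. Tgfb1 rose from 2.96 ± 0.312 to 8.78 ± 0.689 FPKM, the receptor genes Tgfbr1 and Tgfbr2 by 0.69 and 1.09, and 15 of 29 pathway members rose against 2 that fell.

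Lysosomal genes rose broadly. In the lysosome list 37 of 48 tested members rose and 2 fell (median 0.29), and in the cathepsin and cystatin list 13 of 16 rose. Ctss, a cathepsin of microglia, rose from 48.5 ± 2.55 to 220.0 ± 14.2 FPKM, Ctsz from 27 ± 1.35 to 80.9 ± 5.08 FPKM and Ctsh from 6.21 ± 0.808 to 19.2 ± 1.51 FPKM. Hexa rose from 23.7 ± 0.918 to 57 ± 4.34 FPKM and Cd63, a tetraspanin of late endosomes, from 25.4 ± 2.79 to 67.8 ± 3.96 FPKM. Ctse, which encodes cathepsin E, was at 0.0999, 0, 0.267 and 0.0262 FPKM in the WT water libraries and 5.46, 4.79, 5.47 and 0.78 FPKM in the DKO water libraries. DKO water replicate 4 stood apart from the other DKO water libraries but above all WT water libraries, and the change was 2.06 (SE 0.37).

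Lipid transport and storage genes rose with Apoe. In the lipid list 18 of 29 tested members rose and 1 fell, with a median of 0.45. Apoc1 rose from 0.552 ± 0.15 to 2.38 ± 0.865 FPKM, the cholesterol exporter gene Abca1 from 4.55 ± 0.322 to 9.55 ± 0.73 FPKM, and Npc2, which moves cholesterol out of lysosomes, from 15.9 ± 0.192 to 33.5 ± 0.895 FPKM. Ch25h, which makes an oxysterol, rose from 0.309 ± 0.13 to 1.29 ± 0.494 FPKM. The list count includes the entry named Plin2, whose gene number in the files is that of a pseudogene. Cholesterol synthesis gave 6 rises and 1 fall among 28 genes, beside 25.5% and 12.4% over all tested genes, and 3 and 3 after rescaling. With 1 library left out it gave 2 to 8 rises, fewest without DKO water replicate 2 (2) and replicate 1 (3).

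Astrocyte genes rose in the resting and the reactive lists. Gfap, the intermediate filament of reactive astrocytes, was at 25.1, 28.3, 23.9 and 23.6 FPKM in the WT water libraries and 344, 345, 389.6 and 290.4 FPKM in the DKO water libraries. Replicate 3 was the highest DKO water library and replicate 4 the lowest, as for Trem2 and Tyrobp. Vim, another filament gene, rose from 23.2 ± 2.74 to 51.1 ± 3.21 FPKM, Serpina3n, a protease inhibitor, from 7.67 ± 0.404 to 53.8 ± 8.62 FPKM, Aspg from 0.883 ± 0.0556 to 4.79 ± 0.669 FPKM and Cd44, a hyaluronan receptor, from 0.495 ± 0.0942 to 1.78 ± 0.195 FPKM. In the reactive list 22 of 31 tested members rose and 1 fell (median 0.63). Lcn2, often used as a marker of reactive astrocytes, was at 0.124, 0.194, 0.12 and 0.065 FPKM in the WT water libraries and 0.519, 1.22, 0.945 and 1.94 FPKM in the DKO water libraries. The groups did not overlap, the main fit over 15 libraries did not call it (limma adjusted p = 0.0729), and a fit on the 8 water libraries alone did (limma adjusted p = 0.000701). Over 15 libraries it was called with a pseudocount of 0.1 (limma adjusted p = 0.0102) and by voom on recovered reads (limma voom adjusted p = 0.0168).

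Of the 25 general astrocyte markers 21 rose and 1, the Notch target Hes5, fell (median 0.36). Kcnj10, the potassium channel Kir4.1 that clears potassium around synapses, was at 35.4, 33.7, 32.8 and 35.3 FPKM in the WT water libraries and 86.8, 93, 96.7 and 84.8 FPKM in the DKO water libraries. Aqp4, the water channel of astrocyte endfeet, rose from 14.7 ± 1.11 to 27.3 ± 1.31 FPKM, Mlc1 from 42.4 ± 1.9 to 74.5 ± 3.26 FPKM and Ntsr2 from 51.5 ± 1.48 to 89 ± 3.22 FPKM. The glutamate transporter genes Slc1a2 and Slc1a3 rose by 0.26 and 0.31, and Glul, glutamine synthetase, by 0.20. Sums over the whole list were 2231 to 2426 FPKM in WT water and 2869.9 to 2997 FPKM in DKO water.

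Myelin genes rose by smaller amounts. In the myelin list 15 of 26 tested members rose and 0 fell (median 0.23), with 12 rises after rescaling. A list of reactive oligodendrocyte genes moved more, with 11 of 15 rising, 1 falling and a median of 0.80. Its largest change, 3.38, was that of C4b, which is also in the complement list. The major myelin gene Mbp was not called, at 314 ± 18.9 FPKM in WT water and 329.6 ± 34.3 FPKM in DKO water. Trf, transferrin, the iron carrier, was at 133, 127, 122 and 123 FPKM in the WT water libraries and 188, 225, 208 and 192 FPKM in the DKO water libraries. Ftl1, the ferritin light chain, rose from 221 ± 16.5 to 406 ± 16.2 FPKM, Slc11a1, an iron exporter of phagosomes, from 1.05 ± 0.148 to 6.46 ± 0.614 FPKM, and Hmox1, which releases iron from haem, from 3.43 ± 0.633 to 6.2 ± 0.164 FPKM. Among 16 iron genes 10 rose and 2 fell. Precursor markers gave 3 rises among 16, below the 25.5% over all tested genes, Olig1 from 35.4 ± 1.6 to 50.5 ± 3.45 FPKM, Olig2 from 9.77 ± 0.843 to 12.7 ± 1 FPKM and Bcas1 from 42.8 ± 4.11 to 53.2 ± 6.42 FPKM.

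**Figure D3:**
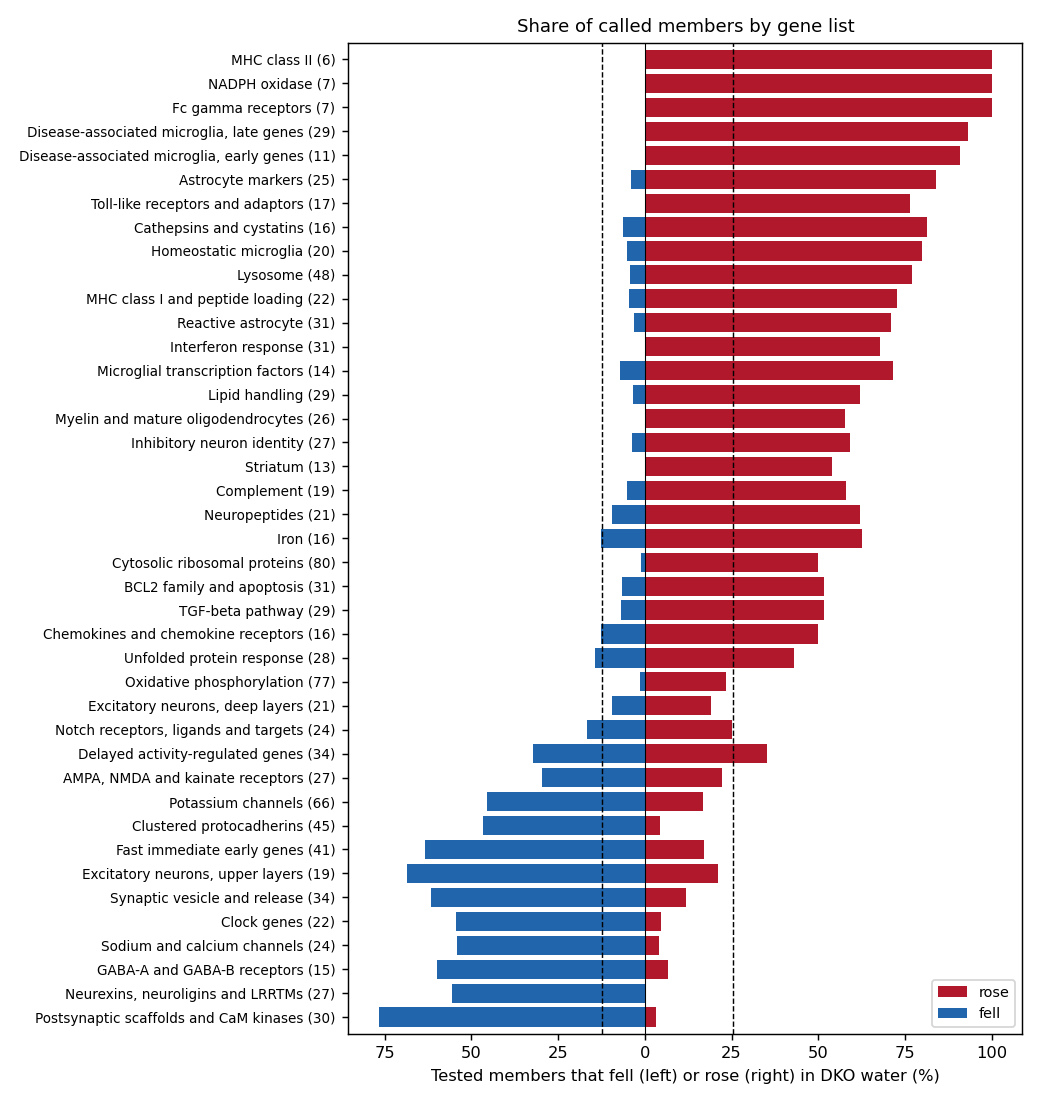
Share of the tested members of each of 41 gene lists that rose (red, to the right) or fell (blue, to the left) in DKO water, with the number tested in brackets. Dashed lines mark the shares over all 12728 genes, 25.5% higher and 12.4% lower; microglial and astrocyte lists lie to the right, and synaptic, channel, clock and immediate early lists to the left.

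Immediate early genes fell in their majority. Arc, which encodes a synaptic protein that forms capsids and removes AMPA receptors, was at 109, 85.9, 102 and 120.2 FPKM in the WT water libraries and 14.1, 16.7, 34.4 and 35 FPKM in the DKO water libraries. All DKO water libraries were below all WT water libraries, and within DKO water replicates 1 and 2 were well below replicates 3 and 4. Fos, an AP-1 transcription factor, was at 21.5, 22.3, 23 and 28.3 FPKM in the WT water libraries and 6.11, 5.45, 9.96 and 10.003 FPKM in the DKO water libraries, and Nr4a1, an orphan nuclear receptor, at 33.8, 27.4, 31.1 and 38.6 FPKM in the WT water libraries and 7.34, 8.05, 11.1 and 10.6 FPKM in the DKO water libraries. In each of these, too, replicates 1 and 2 were the lowest of the DKO water libraries. The changes were -2.11 (SE 0.34) for Arc, -1.52 (SE 0.25) for Fos and -1.72 (SE 0.21) for Nr4a1, with limma adjusted p of 0.000123, 0.000156 and 6.76e-06.

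Of 41 fast immediate early genes 26 fell and 7 rose, with a median of -0.49, and the count of falls ran from 23 to 27 when 1 library was left out. Egr1 fell from 134 ± 12.8 to 48.8 ± 11.2 FPKM, Junb from 57.5 ± 3.89 to 24.1 ± 4.19 FPKM and Egr4 from 19.6 ± 1.99 to 9.39 ± 1.52 FPKM. The feedback phosphatase genes Dusp1, Dusp5 and Dusp6 fell by 1.09, 0.86 and 0.84, and the pseudokinase gene Trib1 by 0.94. Npas4, a neuron-specific factor that responds to calcium entry, was at 5.96, 8.07, 6.27 and 6.98 FPKM in the WT water libraries and 4.35, 2.97, 4.33 and 3.13 FPKM in the DKO water libraries. Here replicates 2 and 4 were the lowest of DKO water, unlike for Arc and Fos.

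The 7 members that rose include stress-responsive AP-1 genes. Jun was at 12.7, 12.9, 13.6 and 13.4 FPKM in the WT water libraries and 29.6, 31.2, 29.4 and 29.7 FPKM in the DKO water libraries, and Atf3, a factor induced by injury and stress, at 0.402, 0.475, 0.52 and 0.365 FPKM in the WT water libraries and 2.35, 2.68, 2.88 and 2.32 FPKM in the DKO water libraries. Neither gene's groups overlapped, and the spread within DKO water was narrow, with no step between replicates 1 and 2 and replicates 3 and 4. Zfp36, which degrades inflammatory messenger RNA, rose from 2.34 ± 0.323 to 4.36 ± 0.32 FPKM, Gadd45g from 8.23 ± 0.675 to 13.4 ± 1.09 FPKM and Jund from 47.4 ± 2.7 to 60.6 ± 4.26 FPKM. Microglia and astrocytes can express these genes as well as neurons.

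**Figure D4:**
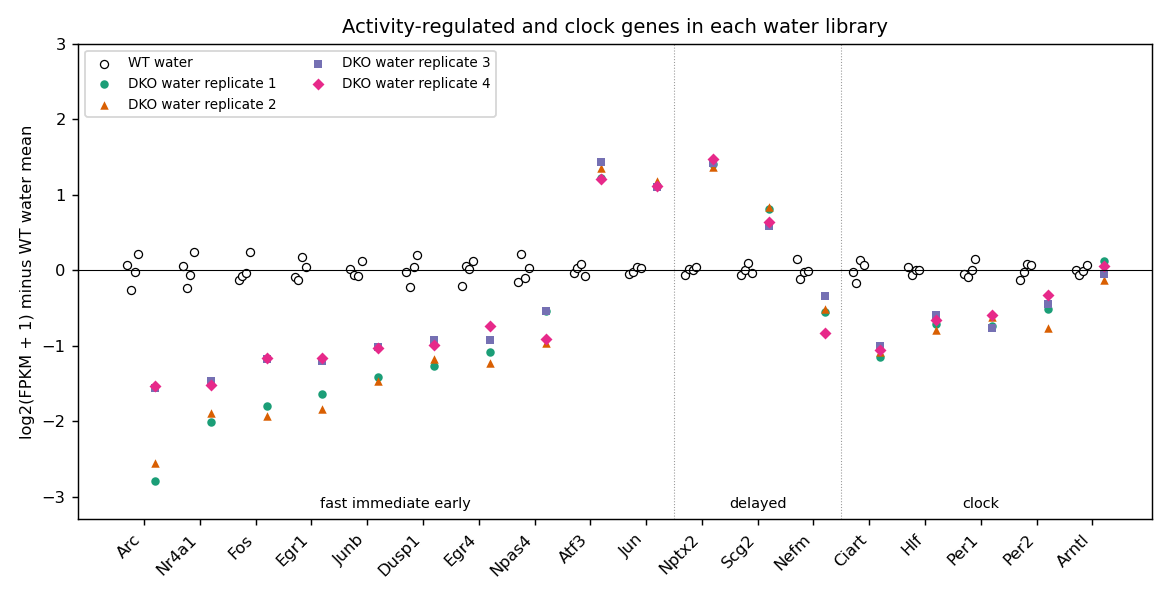
Log2 of the FPKM + 1 value of each library minus the mean of the 4 WT water libraries, for 18 immediate early, delayed activity-regulated and clock genes, in WT water (open) and DKO water (filled) libraries, with DKO water replicates marked by shape. Arc, Fos and Nr4a1 spread widely within DKO water with replicates 1 and 2 lowest, while Jun, Atf3 and Nptx2 lie above and Hlf below WT water with little spread.

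Delayed activity-regulated genes went both ways, 12 of 34 rising and 11 falling, beside 25.5% and 12.4% over all tested genes. With 1 library left out the rises numbered 9 to 12. Nptx2, a secreted pentraxin that gathers AMPA receptors on inhibitory neurons, was at 19.2, 20.2, 20.1 and 20.6 FPKM in the WT water libraries and 55, 53.2, 55.5 and 57.4 FPKM in the DKO water libraries. Values within each group were close to each other, and a change of 1.42 in log2 units, with an SE of 0.07 (limma adjusted p = 7.48e-11) made it the largest rise of the list. Crh, corticotropin-releasing hormone, rose from 3.72 ± 0.614 to 7.46 ± 1.65 FPKM, Scg2, a granin, from 46.5 ± 2.36 to 77.3 ± 6.86 FPKM, and Rgs2, a G-protein regulator, from 16.4 ± 0.833 to 25.7 ± 1.45 FPKM. Nefm, a neurofilament, fell from 101 ± 7.88 to 68.4 ± 9.31 FPKM, Spry4 from 3.47 ± 0.562 to 2.15 ± 0.322 FPKM and Pcsk1, a prohormone convertase, from 11 ± 1.16 to 7.9 ± 1.09 FPKM. The count of falls was 7 without DKO water replicate 2 and 9 or 10 without any other 1 library.

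Clock genes fell in 12 of 22 cases and rose in 1, with a median of -0.19; after rescaling 14 fell and 0 rose. Ciart, a repressor of the clock's activators, was at 9.05, 8.11, 10.2 and 9.7 FPKM in the WT water libraries and 3.63, 3.84, 4.12 and 3.92 FPKM in the DKO water libraries, and Hlf, a PAR bZIP output factor, at 53.8, 49.996, 52.5 and 52.4 FPKM in the WT water libraries and 31.4, 29.8, 34.1 and 32.6 FPKM in the DKO water libraries. The libraries of each group lay close together and the groups apart. Per1 fell from 16.6 ± 1.3 to 10.01 ± 0.665 FPKM, Per2 from 6.44 ± 0.506 to 4.24 ± 0.649 FPKM and Bhlhe40 from 61.5 ± 4.31 to 34.8 ± 1.63 FPKM. The core activators Arntl and Clock were not called, with changes of -0.0009 and -0.016. The sources used here do not give the hour of collection.

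The clock repressor complex acts through E-boxes (CACGTG), PAR bZIP factors through D-boxes (TTATGNAA), and cAMP and calcium signals through CREs (TGACGTCA); each was searched on both strands, as was the CArG box of serum response factor. Among the clock genes that fell and had a promoter in the table, 2 of 10 held an E-box (8.09% of all genes) and 2 of 10 a D-box (3.99% of all genes). Of the uncalled clock genes 3 of 7 held an E-box and none a D-box. Among the fast immediate early genes that fell, 2 of 19 held a CRE (2.03% of all genes), 2 held a CArG box (1.81%) and 3 an E-box. Among the uncalled immediate early genes 2 of 8 held a CRE and 2 an E-box, and among those that rose 1 of 7 held a CArG box and 2 an E-box. The shares in genes that fell and in the others were not tested against each other. The stretches of Ciart (chr3:95882247-95882364, minus strand), with 3 E-boxes, Per1 (chr11:69098763-69098948, plus strand), with an E-box and a D-box, and Dusp1 (chr17:26508573-26508635, minus strand), with a CRE and an E-box, are shown, again from RefSeq on GRCm38.p6, with these letters in capitals. They are examples of genes that fell and hold more than 1 element. Egr2, which fell and has a CArG box and an E-box, is not shown.
Ciart: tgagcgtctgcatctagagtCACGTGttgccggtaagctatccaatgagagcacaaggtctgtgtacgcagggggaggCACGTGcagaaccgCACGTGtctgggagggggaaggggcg
Per1: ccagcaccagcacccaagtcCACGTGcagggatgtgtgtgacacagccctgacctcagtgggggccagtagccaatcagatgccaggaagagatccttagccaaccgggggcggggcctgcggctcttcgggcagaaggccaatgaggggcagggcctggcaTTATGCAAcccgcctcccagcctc
Dusp1: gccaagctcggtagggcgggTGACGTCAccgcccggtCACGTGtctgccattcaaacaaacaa
No match in this window says only that the letters are absent from it.

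Upper-layer markers fell more often than they rose. Of 19 upper-layer markers 13 fell and 4 rose (median -0.25), and of 21 deep-layer markers 2 fell and 4 rose (median 0.023). Over all tested genes 12.4% fell and 25.5% rose. Whether the lists differ was not tested. Lamp5, a membrane protein of superficial neurons, was at 103, 97.8, 95.3 and 97.5 FPKM in the WT water libraries and 55.9, 46.4, 62.7 and 41.8 FPKM in the DKO water libraries, with no overlap. It was lowest in DKO water replicates 2 and 4, the libraries with the highest striatal sums. The part of striatal tissue in this fall was not tested. Otof, otoferlin, fell from 3.18 ± 0.34 to 1.67 ± 0.196 FPKM, Rspo1 from 5 ± 0.29 to 2.91 ± 0.18 FPKM and Calb1, a calcium buffer, from 43.5 ± 1.9 to 30.4 ± 1.82 FPKM. Wfs1, an endoplasmic reticulum protein, went the other way, from 31.7 ± 2.63 to 53.8 ± 7.31 FPKM, as did Sulf1 of the deep-layer list, from 3.17 ± 0.344 to 5.31 ± 0.424 FPKM.

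Markers of inhibitory neurons and neuropeptides rose, in libraries where striatal markers were also higher. Vip, made by interneurons that inhibit other interneurons, was at 28.9, 33.3, 26.9 and 29.2 FPKM in the WT water libraries and 67.9, 63.5, 62.2 and 63.2 FPKM in the DKO water libraries. The DKO water values of Vip varied little, also in replicate 3, whose striatal sum was near that of WT water. The part of striatal tissue in this rise was not tested. Pvalb, a calcium buffer of fast-spiking cells, rose from 38.8 ± 4.98 to 57.4 ± 9.05 FPKM, and Sst, somatostatin, from 292 ± 17.7 to 361 ± 40.2 FPKM. Cort, a relative of somatostatin, fell from 5.03 ± 0.905 to 2.66 ± 0.96 FPKM. The call of Sst was lost without DKO water replicates 2 and 4 together (limma adjusted p = 0.114). Tac2, another neuropeptide of interneurons, rose from 8.14 ± 0.578 to 13 ± 1.97 FPKM. Of 27 inhibitory identity genes 16 rose and 1 fell, with 13 rises after rescaling and 8 without DKO water replicates 2 and 4. Among neuropeptides 13 of 21 rose and 2 fell, and 10 rose without those libraries.

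The striatal list gave 7 rises among 13, 2 without DKO water replicate 2 or 4, 3 without WT water replicate 4, 11 without DKO water replicate 3, and 2 without DKO water replicates 2 and 4 together. Ppp1r1b, the dopamine signalling protein DARPP-32, was at 95.6, 84.8, 94.7 and 71.4 FPKM in the WT water libraries and 145, 169.5, 113 and 165 FPKM in the DKO water libraries. Penk, proenkephalin, was at 50.001, 43.2, 57.4 and 32.7 FPKM in the WT water libraries and 75.1, 90.1, 49.5 and 90.4 FPKM in the DKO water libraries, and its call was lost without WT water replicate 2 or 4 or DKO water replicate 1, 2 or 4 (limma adjusted p from 0.0535 to 0.0964). In both genes replicate 3 was the lowest DKO water library, and for Penk it lay within the range of WT water. The part of striatal tissue in the rises of neuropeptide and inhibitory genes was not tested.

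Lists of synaptic genes held more falls than rises. Among postsynaptic scaffolds and CaM kinases 23 of 30 fell and 1 rose (median -0.22). Camkk2, an upstream kinase, fell from 44.1 ± 1.89 to 25.9 ± 1.11 FPKM, Camk4 from 25.9 ± 1.69 to 15.6 ± 0.549 FPKM and Kalrn, an exchange factor of dendritic spines, from 25.8 ± 1.23 to 17.2 ± 0.994 FPKM. In the vesicle and release list 21 of 34 fell and 4 rose (13 falls without DKO water replicates 2 and 4 together), with Stx1a, a SNARE protein, going from 142 ± 2.03 to 99.2 ± 4.88 FPKM, and Rims1, an active zone scaffold, from 43.5 ± 4.32 to 29.1 ± 2.07 FPKM. Neurexins, neuroligins and related adhesion genes gave 15 falls among 27 and no rise. Cbln4, a synapse organiser, fell from 4.72 ± 0.384 to 2.19 ± 0.111 FPKM, and Cbln2 from 15.8 ± 1.2 to 10.6 ± 0.98 FPKM. Of the clustered protocadherins, adhesion genes that share exons so that reads may be split among them, 21 of 45 fell and 2 rose.

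Glutamate receptors were mixed. AMPA, NMDA and kainate receptors with their auxiliary subunits gave 6 rises and 8 falls among 27, and 4 and 9 after rescaling. Over all tested genes 25.5% rose and 12.4% fell. The falls numbered 5 without WT water replicate 4 or DKO water replicate 2. The AMPA receptor subunit genes Gria2 and Gria3 fell by 0.27 and 0.31, while Gria1 rose by 0.18. Cacng3 and Cnih3, auxiliary subunits, fell by 0.48 and 0.45. Grm2, a presynaptic glutamate autoreceptor, fell from 24.2 ± 1.95 to 12.9 ± 1.08 FPKM. Among GABA receptors 9 of 15 fell and 1 rose. Gabra3 fell from 56.5 ± 1.67 to 43.5 ± 1.79 FPKM. The muscarinic receptor genes Chrm1, Chrm3 and Chrm4 fell by 0.41, 0.49 and 0.37, and the nicotinic subunit gene Chrna4 by 0.31.

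Ion channels fell more often than they rose. Of 66 potassium channel genes 30 fell and 11 rose, and of 24 sodium and calcium channel genes 13 fell and 1 rose. Kcnk4, a two-pore channel, fell from 4.78 ± 0.148 to 2.39 ± 0.243 FPKM, Kcnh5 from 5.28 ± 0.886 to 2.58 ± 0.542 FPKM and Kcnh7 from 6.48 ± 0.95 to 3.7 ± 0.669 FPKM. Cacna1i, a T-type calcium channel, fell from 15.1 ± 0.406 to 9.63 ± 0.455 FPKM and Scn8a, the sodium channel of nodes and axon initial segments, from 35.7 ± 1.25 to 25.7 ± 1.37 FPKM. Rapgef4, the cAMP-gated exchange factor Epac2, was at 104, 97.8, 90.1 and 101 FPKM in the WT water libraries and 49.1, 52.2, 53.8 and 49 FPKM in the DKO water libraries and the groups were far apart. Neurofilament genes Nefl and Nefm fell by 0.41 and 0.56, while Nefh rose by 0.30.

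Several of the 15 largest falls belong to no list of activity genes. Frzb, a secreted Wnt antagonist, was at 10.05, 7.3, 8.37 and 7.8 FPKM in the WT water libraries and 2.22, 2.69, 2.91 and 2.68 FPKM in the DKO water libraries, and Bok, a BCL2-family protein, at 28.7, 31, 28.8 and 28.9 FPKM in the WT water libraries and 14.1, 12.9, 16.4 and 15.9 FPKM in the DKO water libraries. Both genes were lower in each DKO water library than in any WT water library. Plk5, a neuronal polo-like kinase without kinase activity, fell from 5.15 ± 0.419 to 1.91 ± 0.54 FPKM, and Snapc1, a subunit of the complex that transcribes small nuclear RNA, from 10.6 ± 0.642 to 4.98 ± 0.276 FPKM. Olfr78, an olfactory receptor gene, fell from 1.25 ± 0.38 to 0.158 ± 0.0774 FPKM, at levels near the filter. Sfrp5, another secreted Wnt antagonist, rose from 0.22 ± 0.107 to 1.68 ± 0.238 FPKM. In the apoptosis list 16 of 31 rose and 2 fell. Bcl2a1b, a survival gene of leukocytes with near-identical copies, rose from 0.958 ± 0.343 to 4.42 ± 0.651 FPKM and the death receptor gene Tnfrsf1a from 4.72 ± 0.732 to 9.62 ± 0.837 FPKM.

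Among genes of a non-coding type in the annotation, LOC108167440 had a change of 1.02 in log2 units, with an SE of 0.11 (limma adjusted p = 1.74e-06), and B230217C12Rik a change of -0.62 in log2 units, with an SE of 0.06 (limma adjusted p = 2.04e-07). The pseudogene Gm12666 and the small nucleolar RNA Gm22496, whose reads in a library selected for poly(A) RNA can come from other genes, had changes of -1.17 and -0.40. Gm12666 was at 1.74, 0, 3.12 and 1.25 FPKM in the WT water libraries and 0 FPKM in every DKO water library. It passed the filter only through WT water libraries, the group where it was high. In the nicotine libraries its change was -0.17 (limma adjusted p = 0.708). The entry that the deposited files name Plin2, after the coat protein of lipid droplets, carries the gene number of a transcribed pseudogene that overlaps Plin2 in RefSeq. It was at 1.55, 1.46, 1.53 and 1.46 FPKM in the WT water libraries and 3.25, 3.19, 3.21 and 2.81 FPKM in the DKO water libraries, with a change of 0.72 in log2 units, with an SE of 0.07 (limma adjusted p = 5.44e-07), and whether its reads come from the pseudogene or from Plin2 cannot be told apart.

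Of the 6 gamma-secretase subunit genes analysed here, 1, Psen2, fell, and after rescaling Ncstn, which encodes nicastrin, was called lower too. Ncstn had a change of -0.12 and Psenen, which encodes PEN-2, of 0.13, neither called in the main analysis. App, the amyloid precursor gene, was at 389, 379, 395 and 388 FPKM in the WT water libraries and 332, 338, 344 and 347 FPKM in the DKO water libraries, a fall of 0.19 without overlap. The alpha-secretase genes Adam10 and Adam17 rose by 0.18 and 0.46, Bace2 fell by 0.33 and Bace1 was not called. In the Notch pathway 6 of 24 genes rose and 4 fell, 2 without WT water replicate 4 or DKO water replicate 1 or 2, shares near the 25.5% and 12.4% over all tested genes. The receptor genes Notch1 and Notch2 rose by 0.42 and 0.39; without DKO water replicates 2 and 4 together the change of Notch2 was 0.23 and its call was lost (limma adjusted p = 0.105). Of the target genes Hes5 fell by 0.40 while Hes1, Hey1 and Heyl were not called, with changes of -0.019, 0.026 and 0.16.

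Housekeeping lists depended on scaling, as did the counts over all 12728 tested genes. Of these 25.5% rose and 12.4% fell, and after rescaling 2430 rose and 2341 fell. The share of rises in oxidative phosphorylation was near that of all tested genes. Cytosolic ribosomal protein genes, which are short, gave 40 rises and 1 fall among 80, and 20 rises after rescaling; the rises ranged from 19 to 45 with 1 library left out: 19 without WT water replicate 4, 24 without WT water replicate 3, and 20 and 25 without DKO water replicates 1 and 2. The fall was in Rpsa, from 158 ± 6.84 to 95.7 ± 3.89 FPKM, a gene with many processed copies that may share its reads. Oxidative phosphorylation went from 18 rises and 1 fall of 77 to 8 and 5, the proteasome from 12 and 0 of 37 to 4 and 1, and glycolysis from 12 and 0 of 27 to 6 and 1. Without 1 library the rises fell as low as 12 for oxidative phosphorylation (without WT water replicate 4 or DKO water replicate 1), 7 for the proteasome (without WT water replicate 4) and 6 for glycolysis (without DKO water replicate 1, and 8 without WT water replicate 2 or 4). The proteasome members that rose most, Psmb8 and Psmb9, are subunits of the immunoproteasome and rose by 1.03 and 0.75. The unfolded protein response gave 12 rises and 4 falls of 28, and 7 and 5 after rescaling, with 7 rises without WT water replicate 4 or DKO water replicate 3 and 2 falls without WT water replicate 3 or DKO water replicate 1 or 2. Heat shock proteins gave 8 and 2 of 25, and 7 and 6. The metallothionein genes Mt1 and Mt2, which bind zinc, rose by 0.70 and 0.80.

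The same genotypes were compared in separate libraries from mice given nicotine. There 24.6% of tested genes were higher and 11.0% lower in the knockout. All 15 of the largest rises were also called higher in that comparison, by 2.17 to 4.75 against 2.31 to 4.92 in water, and 10 of the 15 largest falls were called lower. The falls that were not called there were Arc, Junb, Dusp1, Egr4 and Trib1, which belong to the immediate early list. The difference between the water and nicotine changes was itself not called for any of the 15 falls (lowest limma adjusted p = 0.576) or the 15 rises (lowest limma adjusted p = 0.716). Arc was at 28.9, 47.9, 90.1 and 79.9 FPKM in the WT nicotine libraries and 46.9, 27.6 and 19.5 FPKM in the DKO nicotine libraries, so WT nicotine replicates 1 and 2 were low. The groups were not matched in Y-linked RNA, since Ddx3y was at 0.065, 0.0461, 0.0228 and 0.0441 FPKM in WT nicotine and 12.9, 0.0989 and 13.1 FPKM in DKO nicotine.

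The genotype change differed between water and nicotine in 2 of 12728 genes (0.0157%). Gabra2, an alpha subunit of the GABA-A receptor, was at 17.6, 17.6, 26.8 and 17.8 FPKM in the WT water libraries and 11.3, 10.1, 11.1 and 10.6 FPKM in the DKO water libraries, and at 9.78, 9.72, 9.69 and 9.32 FPKM in WT nicotine and 10.8, 11.6 and 9.69 FPKM in DKO nicotine. It fell in water by 0.81 and had a change of 0.14 in nicotine (limma adjusted p of the difference = 0.0407). That call was lost without any 1 nicotine library or any 1 DKO water library (limma adjusted p from 0.0528 to 0.136). WT water replicate 3 was well above the rest of its group. Without that library the difference was 0.80 and still called (limma adjusted p = 0.000266). Serpinb6a, an intracellular protease inhibitor with closely related neighbours, was at 15.7, 13.7, 14.1 and 8.55 FPKM in the WT water libraries and 18.8, 18.6, 16.1 and 16.4 FPKM in the DKO water libraries, and at 2.1, 2.23, 2.71 and 2.08 FPKM in WT nicotine and 15, 16 and 20.3 FPKM in DKO nicotine. It rose in water by 0.42, a call lost without WT water replicate 4 or DKO water replicate 1 or 2 (limma adjusted p from 0.0521 to 0.0556), and by 2.46 in nicotine. The difference of the changes was 2.03 (limma adjusted p = 0.00018). In both genes the WT nicotine libraries stood apart from WT water, and the DKO water and DKO nicotine libraries overlapped.

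**Figure D5:**
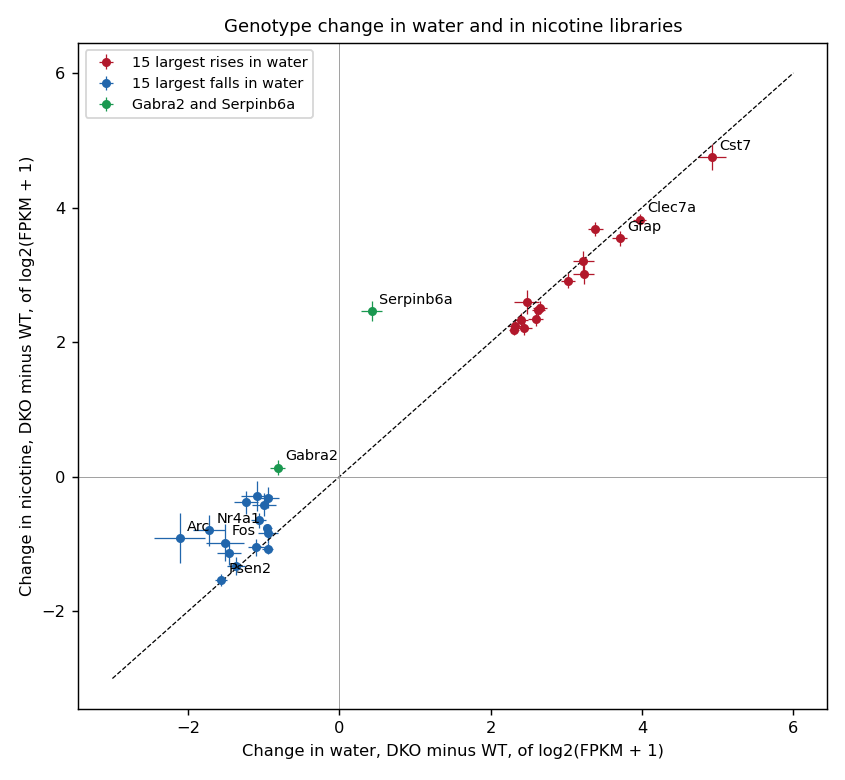
Log2 change, DKO minus WT, in the water libraries (x axis) and in the nicotine libraries (y axis), with bars of 1 SE, for the 15 largest rises, the 15 largest falls, Gabra2 and Serpinb6a; the dashed line marks equal changes. The rises lie near the line, several immediate early genes lie above it without a called difference, and Gabra2 and Serpinb6a are the genes whose changes differed.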

How the data were processed

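RNA-seq of prefrontal forebrain cortex was made from libraries of TRIzol-extracted RNA with a TruSeq Stranded mRNA kit, per the labels' protocols. The authors deposited FPKM values, 1 per gene and library, made by dividing reads by gene length and by the library total; this unit was read from the values, which for all 12728 tested genes come to whole reads (within 0.02 reads). Per the submitters' processing notes the genome was GRCm38.p6. The sources used here do not give the aligner, the counter or its use of strand, so reads of a gene and its antisense partner may be mixed. Read totals of the 8 water libraries ran from 16334914 to 19469257, and 27 gene names turned into dates by a spreadsheet were restored through their gene numbers. RefSeq matched 21727 of 21878 genes.

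Genes with at least 1 FPKM in 3 or more of the 15 libraries were fitted as log2(FPKM + 1) in limma 3.58.1 (R 4.3.3) with a mean per group, an intensity trend and Benjamini-Hochberg adjustment. The genes compared and the lists were chosen with earlier results of these data known. Genes were named by rule: the 15 largest called rises and falls at 1 FPKM or more without overlap, leaving out unnamed gene models; the 10 largest gains and losses in FPKM; up to 4 leading called members of a list; 5 non-coding genes; and Psen2. Genes given beyond it (uncalled or contrasting members, members named for their known role) were chosen after their values were seen. The other targeted gene and some genes the rule names are not reported here, and mitochondrial genes were not analysed here. The test was checked on simulated data. Alternatives were median-of-ratios scaling, other filters, a pseudocount of 0.1, no trend, water libraries alone, the replicate number as a block, autosomal genes, each library left out, and, chosen after seeing the data, voom on the recovered reads, DKO water replicates 2 and 4 left out together, and a 1.5-fold minimum.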

Additional observations from a re-analysis of the deposited data

Results flagged for a closer look

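In 20 of the 464 groups of 4 libraries examined for the genes named in the text, 1 library stood apart from the other 3 by Dixon's 95% criterion, a share near the 1 in 20 that chance gives. DKO water replicate 1 was the lowest for Slc1a2 (255 FPKM, against 279 to 282 FPKM in the others). DKO water replicate 2 was the lowest for Grm2 (11.3 FPKM, against 13.4 to 13.5 FPKM in the others) and Kif5a (314 FPKM, against 323 to 324 FPKM in the others). DKO water replicate 3 was the lowest for Bcl2a1b (3.45 FPKM, against 4.71 to 4.81 FPKM in the others) and Tac2 (10.1 FPKM, against 13.6 to 14.3 FPKM in the others). DKO water replicate 3 was the highest for Cst7 (58.2 FPKM, against 30.9 to 35.5 FPKM in the others). DKO water replicate 4 was the lowest for Ctse (0.78 FPKM, against 4.79 to 5.47 FPKM in the others) and the entry named Plin2 (2.81 FPKM, against 3.19 to 3.25 FPKM in the others). DKO water replicate 4 was the highest for Gadd45g (15 FPKM, against 12.7 to 13 FPKM in the others) and Rnaset2b (16.4 FPKM, against 4.32 to 6.15 FPKM in the others). WT water replicate 1 was the highest for Bst2 (5.03 FPKM, against 2.95 to 3.17 FPKM in the others). WT water replicate 2 was the highest for Bok (31 FPKM, against 28.7 to 28.9 FPKM in the others), Col1a1 (2.33 FPKM, against 1.61 to 1.7 FPKM in the others), Ctsh (7.41 FPKM, against 5.69 to 5.96 FPKM in the others) and Ttr (8.01 FPKM, against 2.82 to 3.66 FPKM in the others). WT water replicate 3 was the lowest for Lpl (4.1 FPKM, against 4.46 to 4.53 FPKM in the others) and Slc1a2 (200.2 FPKM, against 234 to 240.5 FPKM in the others). WT water replicate 3 was the highest for Ccl4 (0.0582 FPKM, against 0 FPKM in the others), Chrm1 (40.2 FPKM, against 36.6 to 37.1 FPKM in the others) and Gabra2 (26.8 FPKM, against 17.6 to 17.8 FPKM in the others).

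The genotype change differed between the nicotine and the water libraries, by the limma test of the difference, in 2 genes. For Gabra2 the change in nicotine minus that in water was 0.95 on the log2 scale. For Serpinb6a the change in nicotine minus that in water was 2.03 on the log2 scale. The WT nicotine libraries held almost no Y-linked RNA while all water libraries did, and the part of this in the differences was not tested.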

How the results depend on the processing

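No gene changed direction with a call under any alternative. With 1 water library left out, higher genes numbered 2716 to 3156 and lower genes 1359 to 1515, against 3252 and 1584. Rescaling by the median of ratios gave 2430 and 2341, voom on recovered reads 3215 and 1634, voom with rescaled totals 2413 and 2409, and a 1.5-fold minimum 510 and 97. Without DKO water replicates 2 and 4 together 2270 and 1154 were called, and the rises numbered 16 for ribosomal proteins, 11 for oxidative phosphorylation, 4 for the Wnt list and 6 for potassium channels; 12 named genes lost their call there, Bace2, Cx3cl1, Gm22496, H2-T22, Ifit3, Notch2, Olig2, P2ry12, Penk, Rnaset2b, Serpinb6a and Sst. Genes whose genotype change differed between water and nicotine numbered 1 to 6 with 1 library left out (2 with all), 6 without DKO nicotine replicate 2 (Serpinb6a, the Y-linked Ddx3y, Eif2s3y, Kdm5d and Uty, and Eif2s3x), 3 without WT water replicate 1, and 1 with no filter, with no trend and with the replicate block. Replicate numbers do not pair the libraries: the residuals of same-numbered WT water and DKO water libraries correlated at -0.0074, 0.021, -0.021 and 0.068, and with the replicate number as a block 3113 genes were higher and 1507 lower. Without a filter on low values 3547 and 1599 of 18118 genes were called, and with a minimum of 5 FPKM 2226 and 1356 of 8944. Values far below 1 FPKM stand on few reads, and changes of genes near or below 1 FPKM are understated.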

Other observations

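Genes of the vessel wall and of the extracellular matrix also rose in DKO water. Of 24 endothelial and barrier genes 12 rose and 0 fell (median 0.20), beside 25.5% and 12.4% over all tested genes. The rises numbered 9 without DKO water replicate 2 and 8 without DKO water replicates 2 and 4 together. Between the genotypes in the nicotine libraries 4 were higher and 1 lower. Cldn5, the tight junction claudin of brain endothelium, went from 18.8 ± 1.73 to 30.9 ± 3.96 FPKM and Ly6a from 16.2 ± 1.39 to 25.1 ± 2.1 FPKM. In the meningeal and fibroblast list 9 of 14 rose, 5 without DKO water replicate 1 and 6 without WT water replicate 3, and the collagen gene Col1a1 rose from 1.81 ± 0.347 to 4.37 ± 0.287 FPKM. In the matrix list 17 of 35 rose and 2 fell. Lgals3, galectin-3, a lectin of activated phagocytes, was at 0.188, 0.196, 0.329 and 0.0789 FPKM in the WT water libraries and 3.58, 3.26, 2.9 and 2.09 FPKM in the DKO water libraries, and Sparc, a matrix protein of microglia and endothelium, rose from 56.3 ± 1.86 to 155 ± 9.4 FPKM. Pycard, the adaptor of inflammasomes, rose from 0.691 ± 0.163 to 2.43 ± 0.102 FPKM, and Il33, an alarmin of oligodendrocytes and astrocytes, from 22 ± 1.43 to 32.3 ± 3.41 FPKM.

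Other growth and signalling genes moved in both directions. Igf1, a growth factor made by activated microglia, rose from 1.14 ± 0.0609 to 2.44 ± 0.246 FPKM, and Axl, a receptor for dying cells, from 10.8 ± 0.16 to 19.5 ± 0.559 FPKM; both were named after their values were seen. Cdkn1a, the cell cycle inhibitor p21, rose from 6.62 ± 0.725 to 10.7 ± 0.991 FPKM. In the p53 list 3 of 22 rose and 4 fell, beside 25.5% and 12.4% over all tested genes. In the Wnt list 10 of 33 rose and 5 fell, shares near the 25.5% and 12.4% over all tested genes, Wnt9a from 8.09 ± 0.203 to 5.02 ± 0.306 FPKM. Among tau, tubulin and neurofilament genes 13 of 34 fell and 5 rose, with the microtubule-associated protein gene Map1a going from 172 ± 3.22 to 129.5 ± 3.46 FPKM. Serotonin, dopamine and adrenergic receptors gave 5 falls and 2 rises of 19, with Htr7 going from 2.52 ± 0.136 to 1.66 ± 0.165 FPKM. In a list of mouse counterparts of Alzheimer risk genes 14 of 26 rose and 3 fell, a list that shares Trem2, Apoe and Spi1 with the microglial lists.

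The largest spread within DKO water was in Ttr, the transthyretin gene of choroid plexus, at 3.08, 8.01, 3.66 and 2.82 FPKM in the WT water libraries and 0.453, 0.447, 10.5 and 24.6 FPKM in the DKO water libraries, so replicates 3 and 4 stood far above replicates 1 and 2, and the gene was not called. Rnaset2b, a lysosomal ribonuclease with a near-identical copy, was at 2.25, 2.45, 2.08 and 2.9 FPKM in the WT water libraries and 4.32, 6.15, 4.98 and 16.4 FPKM in the DKO water libraries, highest in replicate 4, and its rise of 1.22 lost its call without that library (limma adjusted p = 0.0841) or without WT water replicate 3 (limma adjusted p = 0.0519). Among the 53 tested genes within 5 Mb of Psen2, 11 were higher and 11 lower, beside 25.5% and 12.4% over all tested genes. Within 2 Mb 6 of 28 were higher and 3 lower, and within 10 Mb 33 of 119 were higher and 25 lower.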
